A study of Saccharomyces cerevisiae with 6 samples.

Results

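The mitochondrial protein import and folding genes analysed here are 34 nuclear genes of Saccharomyces cerevisiae, chosen by symbol. They encode the outer and inner membrane translocases, the chaperones of the intermembrane space, the import motor, the matrix folding machinery, and the sorting and oxidation machineries. Each of the 34 had 1 probe set among the 5449 genes tested, and all 34 lay above background on every array. Background was the 95th percentile of the probe sets for another yeast species, 5.07 on the log2 scale.

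RNA was hybridised to 6 arrays that form 4 groups. The evolved strains 62A (1 array), 62B (2 arrays) and 62C (1 array) have the CEN.PK113-7D background and were adaptively evolved on galactose. The reference (2 arrays) is unevolved CEN.PK113-7D. Every culture, the reference included, grew on minimal glucose-based medium in a controlled fermenter (pH 5.0) and was harvested in mid exponential phase, which puts the question of what adaptation to galactose does to these genes on glucose. No mutation is named by the labels, nor do they state whether a strain is 1 clone or whether paired arrays are separate cultures. The p-values below thus measure the spread between these arrays, which may be technical.

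Most mitochondrial proteins are made in the cytosol and enter through the TOM complex of the outer membrane. Presequence proteins then pass the TIM23 translocase and are drawn in by a motor built on the mitochondrial Hsp70, carrier proteins are inserted by the TIM22 translocase, outer membrane barrels are assembled by the SAM complex, and small cysteine-rich proteins are trapped by the MIA oxidation pathway. Yeast growing on glucose ferments and holds its respiratory genes down, yet mitochondrial import stays essential for growth.

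All values are log2 expression values, and a change is a difference between such values. For the 34 genes the SD of the log2 difference was 0.0533 within the 62B pair and 0.071 within the reference pair, and the largest single differences were 0.12 (TIM22, 62B) and 0.152 (TIM17, reference). As a measure of RNA integrity, control probe sets for the 3' and 5' ends of 8 genes were compared. Their mean log2 difference was 1.90 and 1.84 for the reference, 1.89 for 62A, 2.01 and 2.05 for 62B, and 1.73 for 62C. For a separate control pair, that of ACT1, it was 1.404 and 1.272 for the reference. The evolved arrays had 1.487 (62A), 1.576 and 1.727 (62B) and 1.414 (62C), all above both reference arrays. The part of RNA integrity in the differences from the reference was not tested. Medians of the 16 chromosomes lay between −0.07 and 0.02 in each strain comparison, and 0 pairs of the 34 genes are neighbours in the RefSeq gene table.

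With each evolved strain counted as 1 sample, the import and folding genes differed from the reference by small amounts. Of the 34, 0 passed the threshold (limma, Benjamini-Hochberg adjusted p under 0.05 over all genes), against 4.75% of all genes (1.96% higher and 2.79% lower). At an unadjusted p under 0.05 there were 9, or 26.5%, beside 28.5% of all genes. The changes ran from −0.26 ± 0.07 for TIM44 to 0.22 ± 0.06 for TIM8, with 18 genes above 0 and 16 below. Their median was 0.0023, beside −0.03 over all genes. A change of more than 0.3 in either direction was seen in 0 of the 34 and in 12.9% of all genes.

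The 95% intervals show how large a change these arrays leave possible. The interval of each gene singly lay between 0.74 and 1.31 of the reference level, so that for every one of the 34 a 1.5-fold change in either direction fell outside it. These intervals rest on 3 strains and 2 reference arrays. The count became 2 (TIM21 higher, TIM22 lower) when both 62B arrays entered as separate samples, a fit in which 12.1% of all genes passed.

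**Figure D1:**
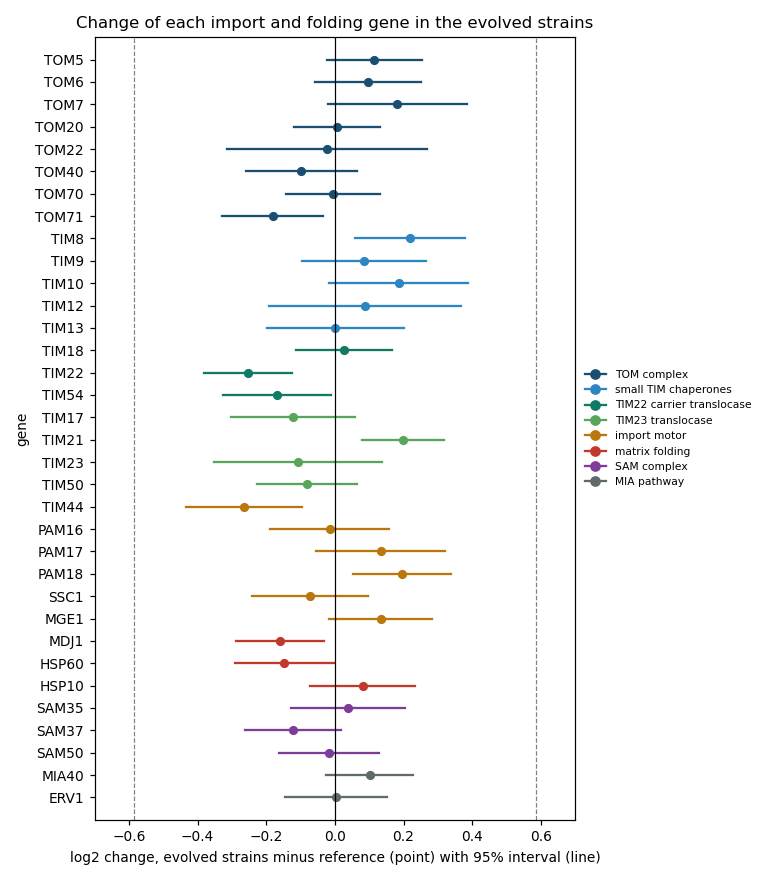
Log2 change of each of the 34 genes in the evolved strains against the reference (horizontal axis; points, 3 strains against 2 reference arrays) with its 95% interval (lines), ordered and coloured by role. Dashed lines mark a 1.5-fold change in either direction; all intervals lie between them, and the points run from −0.26 (TIM44) to 0.22 (TIM8).

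Single strains were set against the reference next, in a fit of all 6 arrays that takes the spread of the 62B and reference pairs to hold for 62A and 62C too. In 62A, 7 of the 34 passed (24.9% of all genes did), with 4 higher (10.0% of all genes) and 3 lower (14.9%). In 62B there were 14 (41.4%), with 3 higher (20.1%) and 11 lower (21.3%). In 62C there were 10 (38.0%), with 7 higher (14.7%) and 3 lower (23.3%). The share of members called was therefore close to, or below, that of all genes, apart from the higher calls in 62C and the lower calls in 62B, and no test of those shares was made. These comparisons share both reference arrays.

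In all, 20 of the 34 genes passed in at least 1 strain (58.6% of all genes did) and 14 in none. TIM8 and TIM21 rose in all 3 strains (6.44% of all genes did), and TIM22 and TIM44 fell in all 3 (8.35%). Opposite calls in 62B and in 62A or 62C were seen for 0 of the 34 (2.29%). The 4 evolved arrays lay above both reference arrays for 9 genes (18.2% of all genes) and below both for 7 (27.4%).

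**Figure D2:**
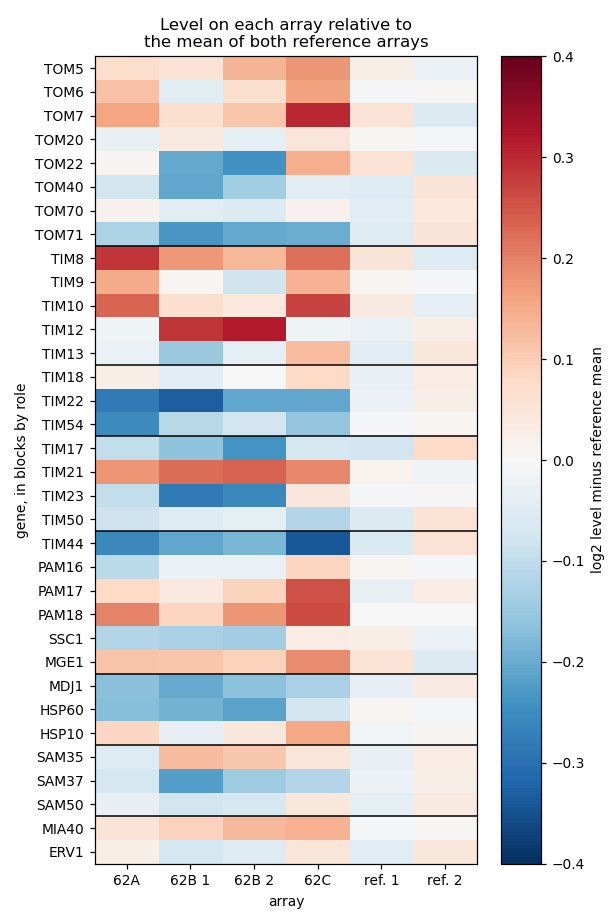
Log2 level of each gene (rows, in blocks by role) on each array (columns) minus the mean of both reference arrays; red is higher and blue lower. TIM8 and TIM21 are red and TIM22 and TIM44 blue on the 4 evolved arrays, and TIM12 is red on the 62B arrays.

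The strain calls depended on the few arrays. Without one or the other 62B array, 3 of the 7 calls in 62A, 3 of the 14 in 62B and 5 of the 10 in 62C were made again, and calls over all genes went down too, to 15.2% in 62A, 23.5% or 22.3% in 62B and 29.1% in 62C. Without the first reference array 12 members (35.3%) passed in 62A, beside 37.7% of all genes. The calls of TIM8, TIM22 and TIM54 in 62A, of TIM12 and TIM23 in 62B, and of TOM7, TIM10, TIM44, PAM17 and PAM18 in 62C were made under every alternative run for them. Some of these alternatives, such as leaving out 62A or 62C, left the fits of the other strains unchanged. In bulk cultures, fewer transcripts in every cell and fewer cells with the transcript cannot be told apart.

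Within the TOM complex, the shared entry gate, 3 of 8 genes fell in 62B and 0 rose, beside 21.3% and 20.1% of all genes. In 62C 1 gene rose and 1 fell, beside 14.7% and 23.3% of all genes. TOM40 (YMR203W) encodes the channel. Its values were 8.79 and 8.89 in the reference, 8.76 in 62A, 8.63 and 8.70 in 62B, and 8.79 in 62C. Both 62B arrays were below the other 4, and the gene fell in 62B (−0.17 ± 0.05, limma adjusted p = 0.0296), with changes of −0.07 and −0.05 in 62A and 62C that did not pass. The 62B call of TOM40 was lost under 3 of 12 alternatives. TOM22 (YNL131W), the central receptor that organises the complex, had values of 8.51 (62A), 8.30 and 8.26 (62B) and 8.64 (62C), against 8.56 and 8.44 in the reference. Here too both 62B arrays lay lowest. TOM22 fell in 62B (−0.22 ± 0.05, limma adjusted p = 0.00925), and its changes of 0.01 (62A) and 0.14 (62C) did not pass.

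The small subunits TOM5, TOM6 and TOM7 aid transfer into the channel and the stability of the complex. Among them TOM7 (YNL070W) passed in 62C. It stood at 9.95 and 9.84 in the reference, 10.05 in 62A, 9.96 and 10.01 in 62B, and 10.20 in 62C, with 62C highest and the groups not overlapping (0.30 ± 0.07, limma adjusted p = 0.00598). TOM5 had changes of 0.07, 0.10 and 0.18 in 62A, 62B and 62C, and TOM6 of 0.12, 0.01 and 0.16, none of which passed. TOM20, a receptor for presequences, had changes between −0.03 and 0.05.

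TOM70 (YNL121C), the receptor for carrier precursors, and its paralog TOM71 (YHR117W) were measured side by side. TOM70 had values of 9.32 (62A), 9.26 and 9.25 (62B) and 9.32 (62C), against 9.26 and 9.35 in the reference, and the groups overlapped. TOM71 had values of 7.55 and 7.65 in the reference, 7.47 in 62A, 7.36 and 7.39 in 62B, and 7.40 in 62C, with every evolved array below both reference arrays. TOM71 fell in 62B (−0.22 ± 0.05, limma adjusted p = 0.00858) and 62C (−0.20 ± 0.06, limma adjusted p = 0.0351), while −0.13 in 62A did not pass. The 62C call was lost under 4 of 11 alternatives. TOM70 passed in no strain, with a class change of −0.01 ± 0.05 beside −0.18 ± 0.06 for TOM71, and the difference between the paralogs was not tested.

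Small TIM proteins ferry hydrophobic precursors across the intermembrane space, Tim9 with Tim10 and Tim8 with Tim13, while Tim12 docks on the TIM22 translocase. TIM8 (YJR135W-A) stood at 10.00 (62A), 9.89 and 9.84 (62B) and 9.93 (62C), against 9.76 and 9.66 in the reference. All evolved arrays were higher than the reference arrays. TIM8 rose in 62A (0.28 ± 0.06, limma adjusted p = 0.0122), in 62B (0.15 ± 0.05, limma adjusted p = 0.0432) and in 62C (0.22 ± 0.06, limma adjusted p = 0.0241), and the 62B call was lost under 4 of 12 alternatives. Its partner TIM13 had a class change of 0.0012 and passed against the reference in no strain.

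TIM10 (YHR005C-A) had values of 11.00 and 10.93 in the reference, 11.20 in 62A, 11.03 and 11.01 in 62B, and 11.24 in 62C. The 62A and 62C arrays were high, and the 62B arrays lay just above the reference. It rose in 62A (0.23 ± 0.06, limma adjusted p = 0.0217) and in 62C (0.27 ± 0.06, limma adjusted p = 0.00665), and 0.05 in 62B did not pass. TIM9, its partner, had changes of 0.15, −0.04 and 0.14 in 62A, 62B and 62C, none of which passed.

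TIM12 (YBR091C) had another pattern. Its values were 8.12 (62A), 8.42 and 8.46 (62B) and 8.12 (62C), against 8.11 and 8.17 in the reference. Both 62B arrays stood above the other 4 arrays, which lay close together. The gene rose in 62B (0.30 ± 0.05, limma adjusted p = 0.00112), with a change of −0.02 in 62A and of −0.02 in 62C.

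The carrier translocase of the inner membrane holds the channel protein Tim22 with Tim54 and Tim18. TIM22 (YDL217C) was measured at 6.89 and 6.94 in the reference, 6.63 in 62A, 6.58 and 6.70 in 62B, and 6.71 in 62C, and every evolved array lay below both reference arrays. TIM22 fell in 62A (−0.28 ± 0.07, limma adjusted p = 0.0156), in 62B (−0.27 ± 0.06, limma adjusted p = 0.00416) and in 62C (−0.21 ± 0.07, limma adjusted p = 0.0376). Its class change was −0.25 ± 0.05 (limma adjusted p = 0.0566). The 62C call was lost under 4 of 11 alternatives.

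TIM54 (YJL054W), a membrane subunit of that complex, stood at 7.23 (62A), 7.38 and 7.41 (62B) and 7.33 (62C), against 7.48 and 7.49 in the reference. The groups did not overlap, with the evolved arrays lower. It fell in 62A (−0.25 ± 0.06, limma adjusted p = 0.0122), and its changes of −0.09 (62B) and −0.16 (62C) did not pass. TIM18, the remaining subunit, had changes between −0.02 and 0.08 and passed in no strain.

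The presequence translocase is formed by Tim23 and Tim17, both related to Tim22, with the receptor Tim50 and the regulatory subunit Tim21, which contacts the TOM complex and the respiratory chain. TIM23 (YNR017W) had values of 8.54 and 8.55 in the reference, 8.45 in 62A, 8.26 and 8.29 in 62B, and 8.59 in 62C. The 62B arrays were lowest and 62C highest. TIM23 fell in 62B (−0.27 ± 0.05, limma adjusted p = 0.0016), with −0.10 and 0.05 in 62A and 62C that did not pass. TIM17 (YJL143W) had values of 8.94 (62A), 8.88 and 8.80 (62B) and 8.97 (62C), against 8.96 and 9.12 in the reference, and the 62C array lay just above the lower reference array. It fell in 62B (−0.20 ± 0.06, limma adjusted p = 0.0264), with −0.10 in 62A and −0.07 in 62C. That 62B call was lost under 3 of 12 alternatives.

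TIM21 (YGR033C) went the other way. It was measured at 7.81 and 7.78 in the reference, 7.97 in 62A, 8.02 and 8.03 in 62B, and 7.99 in 62C. The 4 evolved arrays lay close together, above both reference arrays. TIM21 rose in 62A (0.18 ± 0.06, limma adjusted p = 0.0498), in 62B (0.23 ± 0.05, limma adjusted p = 0.00391) and in 62C (0.19 ± 0.06, limma adjusted p = 0.0266), and its class change was 0.20 ± 0.05 (limma adjusted p = 0.0713). The 62A call was lost under 6 of 11 alternatives. TIM50 had changes between −0.12 and −0.04 and passed in no strain.

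The import motor pulls presequence proteins into the matrix. Tim44 tethers the Hsp70 Ssc1 to the channel, the J-protein Pam18 stimulates it, Pam16 holds Pam18 in check, Pam17 helps to organise the motor and Mge1 exchanges the nucleotide. TIM44 (YIL022W) had values of 8.13 (62A), 8.18 and 8.20 (62B) and 8.05 (62C), against 8.33 and 8.44 in the reference, with each evolved array below both reference arrays. TIM44 fell in 62A (−0.26 ± 0.07, limma adjusted p = 0.0207), in 62B (−0.20 ± 0.05, limma adjusted p = 0.0164) and in 62C (−0.34 ± 0.07, limma adjusted p = 0.00339). Its class change had a limma adjusted p = 0.0815.

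PAM18 (YLR008C) was measured at 8.13 and 8.12 in the reference, 8.32 in 62A, 8.21 and 8.30 in 62B, and 8.39 in 62C, and all evolved arrays were higher. It rose in 62A (0.20 ± 0.06, limma adjusted p = 0.0459) and 62C (0.26 ± 0.06, limma adjusted p = 0.00949), while 0.13 in 62B did not pass (limma adjusted p = 0.0647). PAM16 had a class change of −0.02 ± 0.07 and passed in no strain. PAM17 (0.26 ± 0.06, limma adjusted p = 0.00947) and MGE1 (0.19 ± 0.07, limma adjusted p = 0.0475) rose in 62C, the latter call being lost under 4 of 11 alternatives. SSC1 (YJR045C) had values of 10.11 (62A), 10.10 and 10.09 (62B) and 10.25 (62C), against 10.25 and 10.20 in the reference. It fell in 62B (−0.13 ± 0.05, limma adjusted p = 0.0478), a call lost under 4 of 12 alternatives, and changed by −0.12 in 62A and 0.03 in 62C without passing. Of the 6 motor genes, 1 thus rose (PAM18) and 1 fell (TIM44) in 62A, beside 10.0% and 14.9% of all genes. In 62B 0 rose and 2 fell (TIM44 and SSC1), beside 20.1% and 21.3%. In 62C 3 rose and 1 fell, beside 14.7% and 23.3%.

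**Figure D3:**
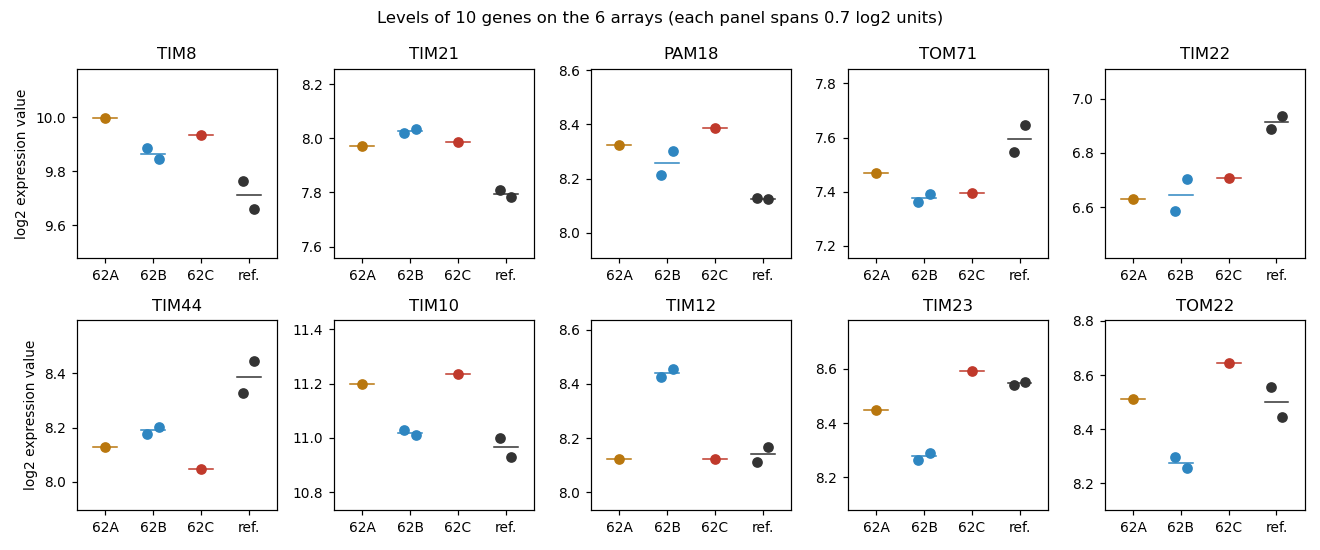
Log2 expression values of 10 genes (panels) on the arrays of 62A (1), 62B (2), 62C (1) and the reference (2); points are arrays, short lines are group means, and each vertical axis spans 0.7. In the panels of TIM8, TIM21 and PAM18 the evolved arrays lie above both reference arrays, and in those of TOM71, TIM22 and TIM44 below both.

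Matrix folding is done by the chaperonin Hsp60 with its lid Hsp10 and by Mdj1, a J-protein that serves Ssc1. HSP60 (YLR259C) had values of 11.09 and 11.07 in the reference, 10.91 in 62A, 10.89 and 10.86 in 62B, and 11.00 in 62C, and MDJ1 (YFL016C) of 8.55 (62A), 8.52 and 8.56 (62B) and 8.59 (62C), against 8.69 and 8.76 in the reference. For both genes the evolved arrays lay below both reference arrays. HSP60 fell in 62B (−0.20 ± 0.05, limma adjusted p = 0.00747) and so did MDJ1 (−0.18 ± 0.05, limma adjusted p = 0.0155). In 62A their changes were −0.17 and −0.17, and in 62C −0.07 and −0.13, none of which passed. HSP10 had changes of 0.08, 0.01 and 0.16 in the 3 strains and passed in none.

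Of the SAM genes, SAM37 (YMR060C) fell in 62B (−0.18 ± 0.05, limma adjusted p = 0.0179), and SAM50, the barrel that inserts other barrels, and SAM35, which reads their sorting signal, passed in no strain. MIA40 (YKL195W), the receptor that oxidises small intermembrane space proteins, had values of 8.86 (62A), 8.90 and 8.94 (62B) and 8.95 (62C), against 8.81 and 8.82 in the reference. All evolved arrays were higher, but changes of 0.05 (62A), 0.11 (62B) and 0.14 (62C) did not pass. ERV1, the oxidase that recharges Mia40, had changes between −0.06 and 0.05.

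The evolved strains were also set against each other. Of the 34 genes, 4 differed among the 3 strains, against 28.8% of all genes: TOM22, TIM10, TIM12 and TIM23 (limma moderated F, adjusted p = 0.00624, 0.0343, 0.0034 and 0.0071). Without the first 62B array 1 member differed (11.5% of all genes) and without the second 0 (12.9%). Leaving out 62A or 62C reduces this F to the pairwise test of the remaining strains, given below, so these runs are not separate checks of it. Between 62C and 62B, 7 members passed (33.6% of all genes), 6 higher in 62C (14.1%) and 1 lower (19.5%). TOM22 (0.37 ± 0.07, limma adjusted p = 0.00282) and TIM23 (0.32 ± 0.06, limma adjusted p = 0.00284) were higher in 62C, and TIM12 was lower (−0.32 ± 0.06, limma adjusted p = 0.00331). The others higher in 62C were TOM7 (0.22 ± 0.07, limma adjusted p = 0.0323), TIM10 (0.22 ± 0.06, limma adjusted p = 0.0213), TIM13 (0.22 ± 0.07, limma adjusted p = 0.0382) and PAM17 (0.19 ± 0.06, limma adjusted p = 0.038).

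Between 62B and 62A, 2 members passed (16.1% of all genes). TIM12 was higher in 62B (0.32 ± 0.06, limma adjusted p = 0.00626; 9.38% of all genes were higher) and TOM22 lower (−0.23 ± 0.07, limma adjusted p = 0.0422; 6.77% were lower). Between 62C and 62A, 0 members passed in limma (2.42% of all genes, 1.91% higher and 0.514% lower), and 2 had an unadjusted p under 0.05.

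In 28 of the 34 genes the level was higher in 62C than in the mean of the 62B arrays, beside 43.6% of all genes. The order 62C, 62A, 62B from high to low was seen in 18 of the 34, beside 24.2% of all genes. The median difference of 62C minus 62B was 0.11 over the 34 genes and −0.03 over all genes. The control differences between 3' and 5' ends ran in the reverse order, highest in 62B and lowest in 62C, and their part in this result was not tested.

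A further 42 genes were listed beside the 34 under import, processing and assembly. Some, such as OM45 and SOD1, stand in the list by compartment, and a role in import was not examined. In the class comparison 1 of the 42 rose and 1 fell (2.38% each, beside 1.96% and 2.79% of all genes). OM14 (YBR230C), an outer membrane protein, had values of 7.98 and 7.92 in the reference, 8.86 in 62A, 8.76 and 8.98 in 62B, and 9.33 in 62C, and it rose (1.07 ± 0.16, limma adjusted p = 0.039). HOT13 (YKL084W), an intermembrane space protein that helps to keep Mia40 oxidised, had values of 7.39 (62A), 7.52 and 7.44 (62B) and 7.33 (62C), against 7.91 and 7.93 in the reference, and it fell (−0.52 ± 0.06, limma adjusted p = 0.035). For neither gene did the evolved and reference arrays overlap. In 62A 7 of the 42 were higher and 7 lower (16.7% each, beside 10.0% and 14.9% of all genes). In 62B there were 11 and 8 (26.2% and 19.0%, beside 20.1% and 21.3%), and in 62C 10 and 8 (23.8% and 19.0%, beside 14.7% and 23.3%).

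By role, the 9 processing peptidase genes ran from ICP55 (−0.28) to IMP1 (0.30) in 62A, from MAS2 (−0.29) to IMP2 (0.99) in 62B and from ICP55 (−0.21) to IMP1 (0.26) in 62C. Imp1 and Imp2 are subunits of the inner membrane peptidase, Mas2 belongs to the enzyme that removes presequences, and Icp55 trims the cleaved proteins further. IMP2 (YMR035W) stood at 6.45 (62A), 7.29 and 7.29 (62B) and 6.48 (62C), against 6.23 and 6.36 in the reference, so that both 62B arrays were far above the rest. It rose in 62B (0.99 ± 0.06, limma adjusted p = 2.65e-06) and did not pass in 62A or 62C.

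The 11 further chaperones and proteases ran from YME1 (−0.29) to HSP78 (0.27) in 62A, from MCX1 (−0.26) to JAC1 (0.13) in 62B and from MCX1 (−0.45) to HSP78 (0.54) in 62C. Hsp78 is the matrix disaggregase, Jac1 a J-protein of iron-sulfur cluster assembly, Mcx1 a matrix unfoldase and Yme1 a protease facing the intermembrane space. HSP78 rose in 62A and 62C, and YME1 and MCX1 fell in each strain, while the JAC1 change in 62B did not pass.

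Among the 7 further outer membrane genes the values ran from DJP1 (−0.07) to OM45 (1.01) in 62A, from MIM2 (−0.25) to OM14 (0.91) in 62B and from MDM10 (−0.14) to OM45 (1.59) in 62C. OM45, an abundant outer membrane protein, rose in each strain. The 8 genes of inner membrane insertion ran from MDM38 (−0.19) to MBA1 (0.13) in 62A, from OXA1 (−0.18) to MBA1 (0.20) in 62B and from MDM38 (−0.25) to MSS2 (0.31) in 62C. Oxa1 is the insertase for proteins exported from the matrix. In the 7 intermembrane space genes HOT13 was lowest (−0.53, −0.44 and −0.59 in 62A, 62B and 62C), and the highest were CMC1 (0.47), COX19 (0.37) and CMC1 (0.55), of cytochrome oxidase assembly.

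The machines that imported proteins build gave other values. As above, 10.0%, 20.1% and 14.7% of all genes rose in 62A, 62B and 62C, and 14.9%, 21.3% and 23.3% fell. The medians of the 34 import and folding genes were −0.02 in 62A, −0.04 in 62B and 0.05 in 62C. Over 33 genes of the respiratory chain and ATP synthase the medians were 0.25, 0.13 and 0.44 in the same order, with 22, 13 and 32 that rose (66.7%, 39.4% and 97.0%) and 0, 2 and 0 that fell. Over 54 mitochondrial ribosomal protein genes they were 0.14, 0.0092 and 0.29, with 18, 14 and 38 that rose (33.3%, 25.9% and 70.4%) and 0, 13 and 0 that fell, the last 13 being 24.1% of the list. The order 62C, 62A, 62B held in 31 of the 33, in 47 of the 54 and in 11 of the 42 other import genes (26.2%, beside 24.2% of all genes). It also held in 12 of 18 cytosolic chaperone genes (66.7%), so it was not limited to mitochondrial lists. The 3' and 5' controls run in the reverse of this order (1.73 in 62C, 1.89 in 62A, 2.01 and 2.05 in 62B), and their part in it was not tested. The difference between these lists was not tested.

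**Figure D4:**
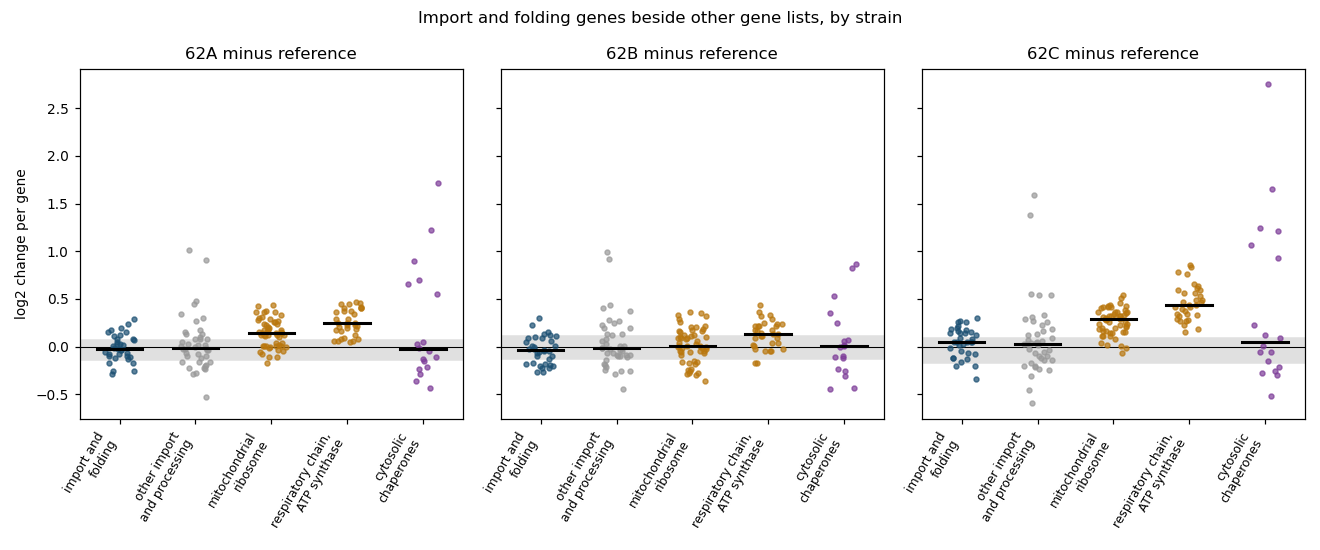
Log2 change of each gene (points) against the reference in 62A, 62B and 62C (panels) for the 34 import and folding genes, 42 other import and processing genes, 54 mitochondrial ribosomal protein genes, 33 respiratory chain and ATP synthase genes and 18 cytosolic chaperone genes. Thick lines are list medians and the grey band runs from the lower to the upper quartile of all tested genes; the import and folding points stay between −0.34 and 0.30.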

How the data were processed

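The deposited series table gives log2 expression values for the 6 arrays. Per the submitters' processing notes, the authors used RMA and affy; tool versions are not stated in any source read, and neither is the set of arrays normalized jointly. Values were used unscaled. Of 10928 probe sets, 5498 matched a single S. cerevisiae gene through the platform annotation. Where a gene had several (47 genes, 0 of them members), the probe set of highest mean was taken, which left 5449 genes. Array number limits the precision.

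Fits were made in limma 3.58.1 (R 4.3.3) with lmFit and eBayes over all 5449 genes, Benjamini-Hochberg adjustment and a threshold of 0.05. The class fit took 62A, 62C and the average of the 62B pair as 3 samples against 2 reference arrays (3 residual degrees of freedom). The strain fit used 6 arrays with 1 term per strain (2 residual degrees of freedom), and a moderated F compared the evolved strains. Errors after ± are standard errors. The fits were also run on simulated data, in which a changed gene moved equally on all evolved arrays and the strains did not differ. That run cannot show how the class fit fares where strains differ, and its recovery of changes is not reported here.

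The members and lists were chosen with earlier results of these data known. The rule for named genes gives array values to the 3 highest and 3 lowest class changes and to paralogs. In the other lists it names the genes that passed in the class and the extremes in each strain. Array values of further genes, IMP2 among them, are given by a choice made after they were seen. Alternatives concerned the 62B arrays, a replicate block, normalization, centring, probe sets, dim genes, the variance trend and single arrays. The genome build is not stated in the sources read, and no coordinates or sequences are printed.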

Additional observations from a re-analysis of the deposited data

Results flagged for a closer look

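For 4 of the 34 genes the change against the reference differed between the evolved strains, by limma's moderated F test over 6 arrays. TIM12 had an adjusted p = 0.0034, with a change of 0.30 in 62B beside −0.02 in 62A and −0.02 in 62C. TOM22 had an adjusted p = 0.00624, with −0.22 in 62B beside 0.01 and 0.14. TIM23 had an adjusted p = 0.0071, with −0.27 in 62B beside −0.10 and 0.05. TIM10 had an adjusted p = 0.0343, with 0.05 in 62B beside 0.23 and 0.27. Without the first 62B array 1 member differed (11.5% of all genes) and without the second 0 (12.9%). The RNA integrity controls were also highest on the 62B arrays, and their part in these differences was not tested.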

How the results depend on the processing

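The counts rest on 1 or 2 arrays per strain. In the class comparison 0 members passed as reported and under every alternative except both 62B arrays as separate samples, which gave 2. With arrays centred on the median of the tested genes, 8 members (23.5%) differed among strains in place of 4, as did 34.0% of all genes in place of 28.8%. Leaving out each array in turn gave 3 to 12 members in 62A (7 as reported), 3 to 15 in 62B (14), 5 to 15 in 62C (10), 0 to 9 among strains (4) and 0 in the class. The class count of 0 says little about stability in these fits, since 0 of all genes passed without one or the other reference array and 6 without 62A. Over all genes too, the strain fits and the among-strain test called fewest genes without a 62B array and most without a reference array. The cause of the lower counts without a 62B array was not tested. Same-numbered 62B and reference arrays did not deviate together (r = −0.0595 across 5449 genes, which are not independent replicates). This check has only a single difference from each pair, so it cannot settle whether the numbers pair the arrays. The titles of 62A and 62C carry no replicate number, and the replicate block placed both with the first 62B and reference arrays. Block results for the class, 62A, 62C and among strains rest on that choice, and the other placement was not run. With the replicate block 0 members passed in the class (all 6 arrays separate), 6 in 62A, 15 in 62B, 11 in 62C (10 higher, 1 lower) and 5 among strains. Over all genes 3.87%, 26.9%, 46.4%, 39.6% and 31.8% passed in the same order. The members called were partly other genes: 7 of the 10 calls in 62C and 3 of the 4 among strains were kept. The block lost TIM21 in 62A (limma adjusted p = 0.0637), TOM71, TIM22 and MGE1 in 62C (0.0583, 0.0616 and 0.0805) and TIM10 among strains (0.0594). TIM21 and TIM22 then passed in 2 strains each, not 3. Gained were PAM18 in 62B (limma adjusted p = 0.0447) and TOM5, TOM6, TIM13 and HSP10 in 62C (0.0437, 0.0363, 0.0464 and 0.0413). Among strains the block gained TIM13 and PAM17 (limma adjusted p = 0.0157 and 0.0413). For single members, 375 values kept their side of the threshold, 56 lost it, 2 gained it and 0 reversed. This tally covers the strain calls made as reported and the 3 highest and 3 lowest class changes. A strain call could thus be lost in it but not gained, and the 2 gained are TIM21 and TIM22 in the class. Some of the alternatives could hardly move a call. No member has several probe sets, so averaging probe sets left the member values unaltered. Leaving out 62A or 62C left the fits of the other strains against the reference unchanged. Class changes that passed in neither fit also count as kept. The totals of alternatives given for single calls include such runs. Over all genes the class count was 259, and it was 658 with both 62B arrays separate and 99 without 62C.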

Other observations

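Of 18 cytosolic chaperone genes, 2 rose and 3 fell in the class comparison (11.1% and 16.7%, beside 1.96% and 2.79% of all genes). YDJ1 (YNL064C), a J-protein that also serves precursors on their way to mitochondria, had values of 9.70 (62A), 9.72 and 9.67 (62B) and 9.62 (62C), against 10.09 and 10.18 in the reference and fell (−0.46 ± 0.06, limma adjusted p = 0.035). The cochaperone STI1 (−0.36 ± 0.06, limma adjusted p = 0.0419) and the Hsp70 exchange factor FES1 (−0.29 ± 0.05, limma adjusted p = 0.0419) fell too, each with all evolved arrays below both reference arrays. The genes that rose were the disaggregase HSP104 (0.99 ± 0.16, limma adjusted p = 0.0419) and the small heat shock gene HSP42 (1.25 ± 0.23, limma adjusted p = 0.0477).

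Of 5 regulators, 0 passed in the class comparison by limma, and 2 had an unadjusted p under 0.05. HAP4, an activator of respiratory genes, rose in 62A (0.40 ± 0.09, limma adjusted p = 0.0109), 62B (0.20 ± 0.07, limma adjusted p = 0.0462) and 62C (0.73 ± 0.09, limma adjusted p = 0.000239). HSF1, the heat shock factor, fell in 62B (−0.18 ± 0.06, limma adjusted p = 0.04), with −0.16 in 62A and −0.16 in 62C. PUF3, MSN2 and MSN4 passed in no strain.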
